A study of Mus musculus with 2 samples.

Results

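MHC class II low valve macrophages are macrophages of the mouse heart valve with almost no transcripts of the class II antigen presentation genes H2-Aa, H2-Ab1 and H2-Eb1. They were chosen by their counts of UMIs, the molecular tags that each stand for 1 captured transcript, in every cell barcode, the tag shared by all transcripts of 1 droplet. A barcode was a member when Col1a1, Col1a2, Col3a1 and Dcn together made up under 1% of its UMIs, when it held at least 3 UMIs of C1qa, C1qb, C1qc and Csf1r, and when it held at most 1 UMI of H2-Aa, H2-Ab1 and H2-Eb1. The rule found 133 of 4473 barcodes, which were 92 of 3512 in the P30 library and 41 of 961 in the P7 library.

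The series used Drop-seq, in which single cells and barcoded beads are captured together in droplets, on cells of aortic and mitral valves of C57BL/6J mice at postnatal day 30 (P30) and postnatal day 7 (P7). The labels give no transgene, mutation or treatment for either age. Each age was 1 library, and the number of animals behind it is not given in the sources used here. Age, library and sequencing run cannot be told apart, so every P30 against P7 difference compares 2 libraries with no replicate check.

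Macrophages take up dying cells, debris and lipoproteins, and they signal to other cells through chemokines, cytokines and complement. In the mouse heart, class II low macrophages are known as a resident population that is marked by Lyve1, Folr2, Timd4 and Cd163 and largely renews itself by division. Class II positive macrophages load peptides onto MHC class II molecules for CD4 T cells, and those that carry the chemokine receptor Ccr2 are known to be replaced by blood monocytes.

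The members held a median of 2335.5 UMIs per barcode at P30 (lowest 786, highest 9146) and 2165 at P7 (lowest 886, highest 7968), and a median of 1137 detected genes at P30 and 1146 at P7. Their UMIs summed to 245203 at P30 and 99485 at P7, so 1 UMI was worth 4.08 CPM (UMIs per 1000000 UMIs of the group) at P30 and 10.1 CPM at P7. Mitochondrial transcripts took 5.64% of the members' UMIs at P30, against 2.05% at P7. The mitochondrial ribosomal RNA mt-Rnr2, which is among them, took 4.13% at P30 and 0.273% at P7. The nuclear transcript Malat1 took 2.12% of UMIs at P30, against 0.406% at P7. In barcodes at or above the 1% collagen limit mt-Rnr2 took 2.77% at P30 and 0.479% at P7. Malat1 took 3.96% and 1.11% of UMIs in those barcodes. Haemoglobin transcripts took 0.778% at P30, of which 1 barcode held 88.6%, and 1.37% at P7, of which 1 barcode held 72.7%. Barcodes ending in N, an unread base, numbered 6 of the 92 P30 members and 12 of the 41 P7 members. No barcode sequence was shared by the libraries.

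The label was checked against markers. C1qa, C1qb, Csf1r, Pf4 and Mrc1 were given with the cells. They summed to 11231.5 CPM in P30 members and 10504 CPM in P7 members, against 85.3 CPM at P30 and 27.5 CPM at P7 in the barcodes at or above the collagen limit, called collagen barcodes below. Each of the 92 P30 and 41 P7 members held at least 2 UMIs of these genes. The rule itself uses 3 of them, so this count and the sums were partly set in advance. Outside the rule, Pf4 and Mrc1 had 839 and 365 UMIs in P30 members and 363 and 196 in P7 members. All 10 other macrophage markers had UMIs at both ages and summed to 14951 CPM at P30 and 10574 CPM at P7. Of 11 dendritic cell markers 5 had UMIs at P30 and 3 at P7, 88 UMIs (359 CPM) at P30 and 16 UMIs (161 CPM) at P7, and 18 of the 92 P30 members and 4 of the 41 P7 members held at least 2. T and NK cell markers had 12 UMIs at P30 and 2 at P7, and B cell markers 16 UMIs at P30 and 6 at P7. Several defining markers of other leukocytes were at 0 in the members of both ages, though some had UMIs in other barcodes of the libraries. These were Cd209a, Flt3, Xcr1, Clec9a and Ccr7 of dendritic cells, S100a8 and S100a9 of neutrophils, and Cd3d, Cd3e, Cd3g and Trac of T cells. Of 6 monocyte markers, Plac8, Fcnb and Chi3l3 were at 0 at both ages, and the list had 18 UMIs at P30, 16 of them Ccr2 UMIs of 1 barcode, and 0 UMIs at P7. The 6 interstitial markers outside the rule summed to 408 CPM in P30 members and 121 CPM in P7 members, with Pdgfra at 0 in P30 and Fmod at 0 in P7. The 10 endothelial markers summed to 110.1 CPM at P30 and 60.3 CPM at P7, with Emcn, Kdr, Cldn5 and Plvap at 0 at both ages.

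The values that chose the members are described here without a test. The 4 macrophage genes of the rule had a median of 24.5 UMIs per P30 member (7 to 91) and 12 per P7 member (3 to 66). Only 1 P30 barcode and 2 P7 barcodes had 2 of these UMIs and met the other criteria, just outside the threshold. At P30, 74 macrophage barcodes had 0 class II UMIs and 18 had 1, just inside the limit, while 12 had 2, just outside, and 84 had over 20. At P7, 40 had 0, 1 had 1, none had 2 and none had over 20. Class II low barcodes were 40.7% (95% exact binomial interval 34.2 to 47.4) of the 226 P30 macrophage barcodes and 87.2% (74.3 to 95.2) of the 47 P7 macrophage barcodes. Of all barcodes of the library they were 2.62% (2.12 to 3.2) at P30 and 4.27% (3.08 to 5.74) at P7. All intervals here cover counting error only, since barcodes of 1 library are not replicates of an age.

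**Figure D1:**
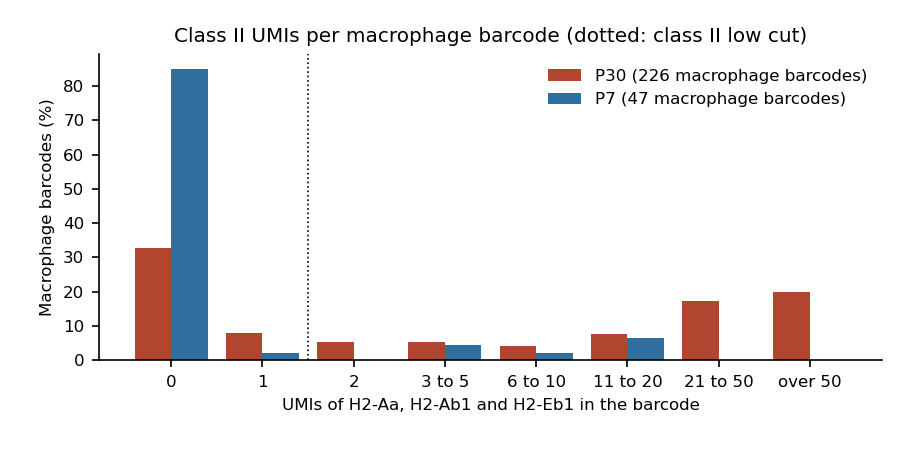
Share of macrophage barcodes in percent (y axis) by their UMIs of H2-Aa, H2-Ab1 and H2-Eb1 together (x axis), P30 bars left of P7 bars, with the class II low barcodes left of the dotted line. Of 226 barcodes at P30 74 are at 0 and 84 over 20, and of 47 at P7 40 are at 0 and none is over 20.

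Some resident macrophage genes, such as Lyve1, Folr2, Cbr2 and F13a1, had more transcripts in class II low macrophages at P30 than at P7. So did interferon response genes such as Ifi27l2a and Ifitm3, and chemokines such as Ccl8, Ccl6 and Cxcl1. Ifi27l2a and Cxcl1 also stood higher at P30 in collagen barcodes. Genes with more transcripts at P7 included Gclm of glutathione synthesis, which also stood higher at P7 in collagen barcodes, the transcription factor gene Jun and the ADP receptor gene P2ry12. A gene was measured when the higher library had at least 20 CPM and 10 UMIs. It was called when the libraries differed at least 2-fold and the exact counting interval of their ratio excluded equal levels. By this rule 22 of 28 measured interferon response genes and 9 of 9 measured chemokines were also higher at P30 in collagen barcodes. So were 4 of 9 measured resident macrophage genes there, against 4.61% of all genes measured in those barcodes. In members 7 of 19 measured resident macrophage genes were called higher and 12 were not called, Pf4 and Mrc1 among them. Of 3299 measured genes, 263 were called higher at P30 (7.97%) and 287 lower (8.7%), and the median log2 difference of all of them was 0.18. Each count of list members called between the ages below is to be read beside these shares. With scaling by the median of ratios in place of total UMIs, that median was 0.42, and 424 genes were higher and 175 lower, so that 70.8% of calls were higher, against 47.8%. Where a gene had no UMI in 1 library, its ratio was taken against 3 UMIs in that library and is a bound. A difference below is log2 of P30 CPM over P7 CPM, with its 95% exact interval where given. A signed number in parentheses after 2 levels is that log2 difference.

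**Figure D2:**
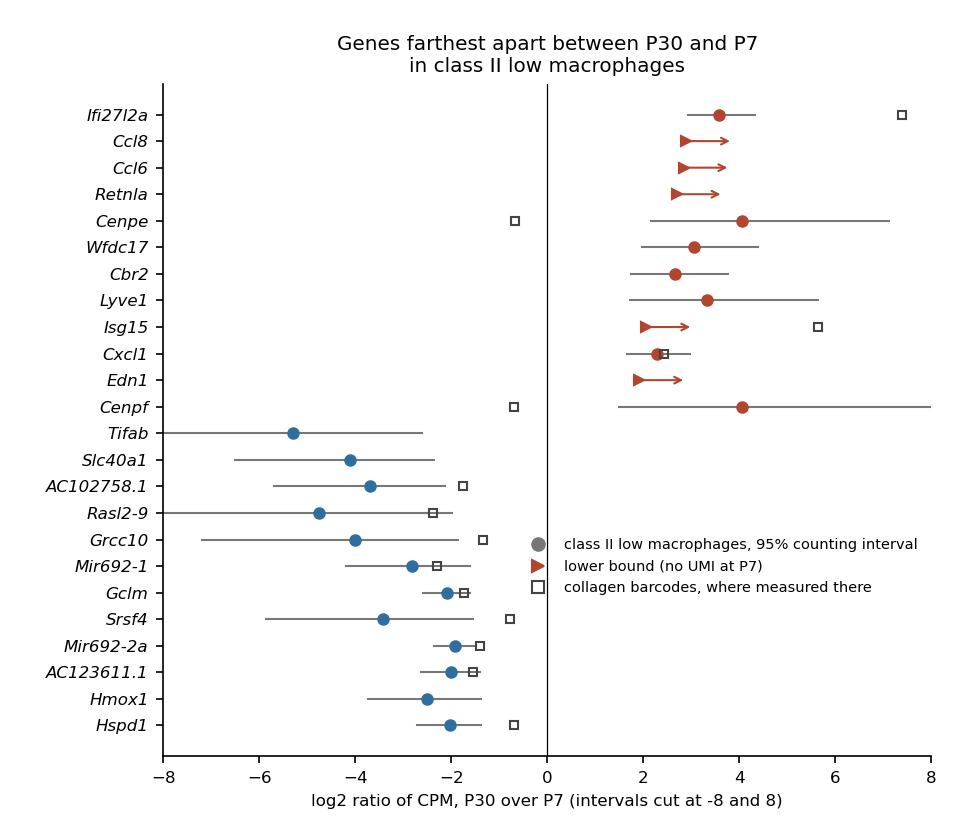
Log2 ratio of P30 over P7 CPM in class II low macrophages (circles with 95% exact counting intervals, triangles with arrows for lower bounds) for the 12 genes whose interval lay farthest from equality in each direction, and in collagen barcodes of the same libraries (squares, where measured). Ifi27l2a stands at 3.58 and Lyve1 at 3.32 on the higher side, and Slc40a1 at -4.11 and Gclm at -2.09 on the lower side.

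Of 27 listed resident macrophage genes 19 were measured, 7 of which were called higher at P30 and 0 lower, with a median difference of 0.40. Lyve1 (chr7:110850607-110863239, minus strand, mm10), the hyaluronan receptor of lymphatic endothelium and perivascular macrophages, had 302 CPM at P30 (237 to 379) and 30.2 CPM at P7 (6.22 to 88.1). These were 74 UMIs in 24 of 92 P30 members and 3 UMIs in 3 of 41 P7 members, a difference of 3.32 (1.72 to 5.63). The collagen barcodes had 3.08 CPM of Lyve1 at P30 and 1.37 at P7, so members stood above them at both ages. Folr2 (chr7:101839988-101857194, minus strand), a folate receptor of resident macrophages, had 237 CPM at P30 (179.6 to 306) and 30.2 CPM at P7 (6.22 to 88.1), a difference of 2.97 (1.35 to 5.29). Its UMIs were spread over 35 P30 members, and at P7 its 3 UMIs lay in 2 members. Cbr2 (chr11:120729489-120732114, minus strand), a carbonyl reductase, had 640.3 CPM at P30 (544 to 749) in 51 members and 101 CPM at P7 (48.2 to 185) in 6, a difference of 2.67 (1.75 to 3.76). F13a1 (chr13:36867178-37050244, minus strand) encodes the catalytic subunit of coagulation factor XIII, which cross-links fibrin. It had 1060.3 CPM at P30 (935 to 1197) and 322 CPM at P7 (220.0 to 454), a difference of 1.72 (1.19 to 2.30). Cd163 (chr6:124304656-124330527, plus strand), the receptor for haemoglobin bound to haptoglobin, had 392 CPM at P30 (317 to 478) in 21 members and 101 CPM at P7 (48.2 to 185) in 6, a difference of 1.96 (1.02 to 3.07). Mgl2, a galactose-type lectin, and Ninj1, a membrane protein of cell rupture, were also called higher, by 1.65 (0.59 to 2.93) and 1.59 (0.24 to 3.29).

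Other resident genes were not called. Pf4, a platelet-type chemokine that resident macrophages also make, had 3422 CPM at P30 (3194 to 3661) and 3649 CPM at P7 (3283 to 4044), a difference of -0.09. Mrc1, the mannose receptor, had 1489 CPM at P30 and 1970.2 CPM at P7, a difference of -0.40 (-0.66 to -0.15). Timd4, a receptor for phosphatidylserine on dying cells, had 53.0 CPM at P30 and 40.2 CPM at P7. Stab1, a scavenger receptor, stood at -0.39, Gas6, a bridge between dying cells and their receptors, at -0.44, Sepp1, the selenium carrier, at -0.22 and the endocytic adaptor Dab2 at -0.74.

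Detection was also compared at equal depth, by thinning every barcode to 500 UMIs, which left none out because the shallowest member had 786. Cbr2 was then found in 25.4% of P30 members and 5.14% of P7 members, against an unthinned 55.4% and 14.6%. Lyve1 was found in 11.7% of P30 members and 2.74% of P7 members at this depth, against an unthinned 26.1% and 7.32%. Pf4 was found in 68.0% of P30 members and 71.3% of P7 members, against an unthinned 92.4% and 87.8%. In collagen barcodes, which should lack these genes, the thinned shares were 0.120% and 0.105% for Lyve1 and 0.103% and 0.009% for Cbr2, at P30 and P7. Any UMI of Lyve1, Folr2, Timd4 or Cd163 was found without thinning in 52.2% (41.5 to 62.7) of P30 members and 22% (10.6 to 37.6) of P7 members, against 0.949% and 0.554% of collagen barcodes.

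**Figure D3:**
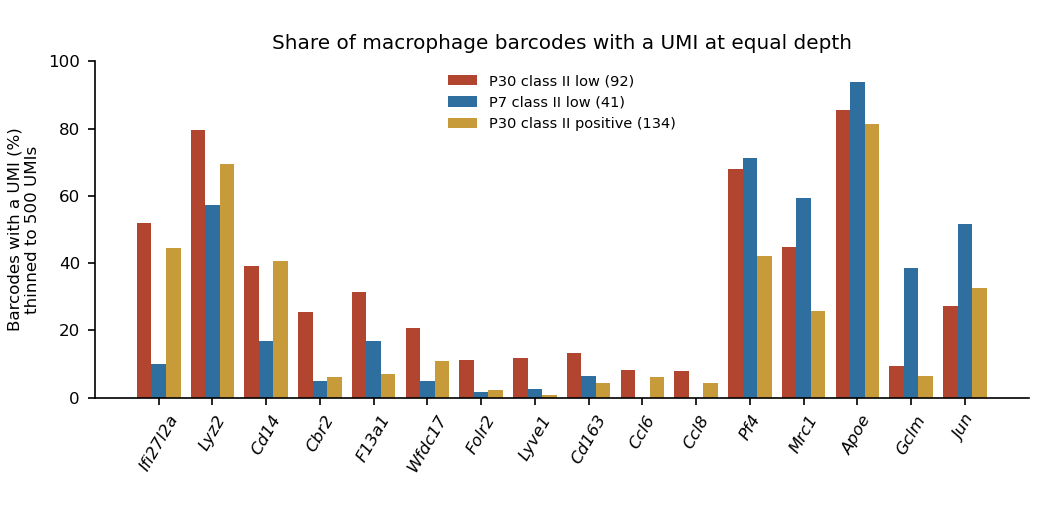
Percent of barcodes with at least 1 UMI of each gene after thinning to 500 UMIs, in P30 class II low (left bar), P7 class II low (middle bar) and P30 class II positive barcodes (right bar). Cbr2 was at 25.4% in P30 class II low and 5.14% in P7 class II low barcodes, and Pf4 at 68.0% and 71.3%.

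Interferon response genes, which cells switch on after interferon or virus sensing, were the second group. Of 39 listed, 29 were measured, 12 of which were called higher at P30 and 0 lower, with a median difference of 1.28. Sequence windows upstream of called members are shown because several carry the core of the interferon-stimulated response element. The letters GAAANNGAAA, a pair of GAAA blocks 2 bases apart that interferon regulatory factors are known to bind, were searched on both strands in the 250 bases before each start in RefSeq promoters (GRCm38.p6, the mm10 build), counting overlapping matches. Capitals mark the matches, and each window is written 5′ to 3′ on the strand of its gene. The Isg15 window lies at chr4:156200855-156200916 (minus strand), with 3 overlapping matches that begin 78 to 66 bases before the start. The Rsad2 window lies at chr12:26456543-26456592 (minus strand) with the match on the opposite strand, and the Gbp2 window at chr3:142620584-142620633 (plus strand), also with the match on the opposite strand. The Irgm1 window lies at chr11:48871421-48871470 (minus strand), with 2 overlapping matches that begin 30 and 24 bases before the start.
Isg15: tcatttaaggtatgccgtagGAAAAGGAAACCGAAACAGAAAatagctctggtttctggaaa
Rsad2: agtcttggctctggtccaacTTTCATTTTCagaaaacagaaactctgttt
Gbp2: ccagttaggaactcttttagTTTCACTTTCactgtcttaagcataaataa
Irgm1: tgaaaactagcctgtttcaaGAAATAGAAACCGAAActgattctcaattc
Of 21 measured interferon members with a RefSeq promoter 12 held the motif (57.1%), against 936 of 27025 genes (3.46%). Among called members it was 5 of 8 (62.5%), and among measured members that were not called 7 of 13 (53.8%), so that these letters were found among both. A match describes the letters of the window and not binding by a factor.

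Ifi27l2a (chr12:103442167-103443680, minus strand), a small interferon-induced membrane protein, had 2284 CPM at P30 (2099 to 2481) and 191 CPM at P7 (115 to 298). Its 560 UMIs lay in 74 of 92 P30 members and its 19 UMIs in 12 of 41 P7 members, a difference of 3.58 (2.92 to 4.32). After thinning it was found in 51.8% of P30 members and 10.02% of P7 members. Ifitm3 (chr7:141009586-141010770, minus strand), which blocks the entry of viruses, had 595 CPM at P30 (503 to 700.2) in 51 members. It had 10.1 CPM at P7 (0.254 to 56.0), a single UMI, a difference of 5.89 (3.39 to 11.20). The P30 level of Ifitm3 stood below the 1063 CPM of the P30 collagen barcodes. Isg15 (chr4:156199424-156200818, minus strand), a ubiquitin-like protein, had 31 UMIs in 12 P30 members, 126 CPM (85.9 to 179), and no UMI at P7, so that it was at least 2.07 higher on the log2 scale. Ly6e, a membrane protein that restricts coronavirus entry, had 1166 CPM at P30 and 332 CPM at P7, a difference of 1.81 (1.29 to 2.38), with UMIs in 73 P30 members and 15 P7 members. The guanylate-binding protein gene Gbp2 had 102 CPM at P30 (66.0 to 151) in 8 members and no UMI at P7, at least 1.76 higher.

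Other members were carried by few barcodes. Rsad2, the antiviral enzyme viperin, had 163 CPM at P30 (117 to 222), of whose 40 UMIs 25 were in 1 barcode, and 10.1 CPM at P7. Irf7, the transcription factor of type I interferon genes, had 22 UMIs in 3 P30 members and 1 UMI at P7. The 18 Ly6a UMIs at P30 were all in 1 barcode. Without the barcode with most UMIs of each gene, an alternative chosen after seeing the data, 9 of the 12 genes were called higher. Taken over all listed interferon genes, the share of a barcode's UMIs had a median of 0.644% in P30 members (lowest 0.0444, highest 3.83) and 0.249% in P7 members (lowest 0, highest 1.93). The P30 class II positive barcodes had a median of 0.614%. The collagen barcodes of the same libraries moved the same way: 22 of 28 measured genes of the list were higher at P30 and 1 was lower, with a median of 2.31 against a median of -0.28 over their 7096 measured genes, of which 4.61% were called higher and 13.5% lower. In those barcodes Ifi27l2a had 691 CPM at P30 and 4.12 CPM at P7. The part of age, of the libraries' handling and of free RNA in these values cannot be told apart.

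MHC class I genes, which display peptides of the cell's own proteins, stood higher at P30 as well. Of 20 listed 15 were measured, with 6 called higher and 0 lower and a median of 1.07. The heavy chain H2-K1 (chr17:33996017-34000347, minus strand) had 1305 CPM at P30 (1166 to 1456) and 623 CPM at P7 (478 to 799), a difference of 1.07. H2-D1 had 2455 CPM at P30 and 1196 CPM at P7, a difference of 1.04 (0.75 to 1.33). Psmb8 and Psmb9, subunits of the immunoproteasome that cuts peptides for class I, had 309.9 and 159 CPM at P30, against 121 and 20.1 CPM at P7. B2m, the shared light chain, had 8723 CPM at P30 and 4815 CPM at P7, a difference of 0.86 that did not reach 2-fold. The list took a median of 1.39% of a barcode's UMIs at P30 and 0.752% at P7. In collagen barcodes 10 of 12 measured genes were higher, with a median of 2.46.

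Of 17 genes of the class II path that the rule did not use, 9 were measured and 2 were called higher. Cd74, the invariant chain that guards class II molecules until they are loaded, had 302 CPM at P30 (237 to 379) and 90.5 CPM at P7 (41.4 to 172), a difference of 1.74. H2-DMb1, a subunit of the loading catalyst, had 16 UMIs at P30 and 1 UMI at P7, with an interval that only just excluded equality (0.01 to 8.09). Members at P30 could hold 1 class II UMI, and 18 did, while 18.1% of P30 and 8.03% of P7 collagen barcodes also held at least 1 such UMI.

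Chemokines, the attractants of leukocytes, were higher at P30 for 8 of 16 measured genes and lower for 2, of 24 listed, with a median of 0.98. In collagen barcodes of the same libraries 9 of 9 measured chemokines were called higher at P30, with a median of 2.2. Ccl8 (chr11:82115185-82116799, plus strand), a monocyte attractant, had 55 UMIs in 16 P30 members, 224 CPM (169 to 292), and no UMI at P7 (0 to 37.1 CPM), at least 2.89 higher. Ccl6 (chr11:83587882-83593087, minus strand), a rodent chemokine of myeloid cells, had 53 UMIs in 20 P30 members, 216 CPM (162 to 283), and no UMI at P7, at least 2.84 higher. Cxcl1 (chr5:90891241-90893115, plus strand), a neutrophil attractant, had 1126 CPM at P30 (997 to 1267) in 53 members and 231 CPM at P7 (147 to 347) in 8, a difference of 2.28 (1.67 to 2.97). The collagen barcodes also had more Cxcl1 at P30, with 849 CPM against 156 CPM at P7. Ccl9 was higher by 2.11 (1.06 to 3.37), and the monocyte attractants Ccl2 and Ccl7 by 1.12 and 1.23. Ccl2 had 3267 CPM at P30 (3044 to 3501) and 1508 CPM at P7 (1276 to 1769). Ccl4, an attractant of monocytes and T cells, had 2079.9 CPM at P30 and 975 CPM at P7, a difference of 1.09. Cxcl9 had 23 UMIs in 3 P30 members and none at P7.

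Cxcl10 and Cxcl3 stood the other way. Cxcl10, an interferon-induced attractant of T cells, had 118 CPM at P30 (79.2 to 169.9) and 292 CPM at P7 (195 to 419), a difference of -1.3 (-2.10 to -0.51). In collagen barcodes Cxcl10 stood higher at P30, with 67.5 CPM against 14.6 CPM at P7. Cxcl3, a neutrophil attractant, had 399.7 CPM at P30 and 935 CPM at P7, a difference of -1.23. With median-of-ratios scaling Cxcl3 stood at -0.99 and Cxcl10 alone was called lower. The list as a whole took a median of 1.77% of a barcode's UMIs at P30 (0.247 to 7.0) and 1.10% at P7 (0.106 to 3.76).

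**Figure D4:**
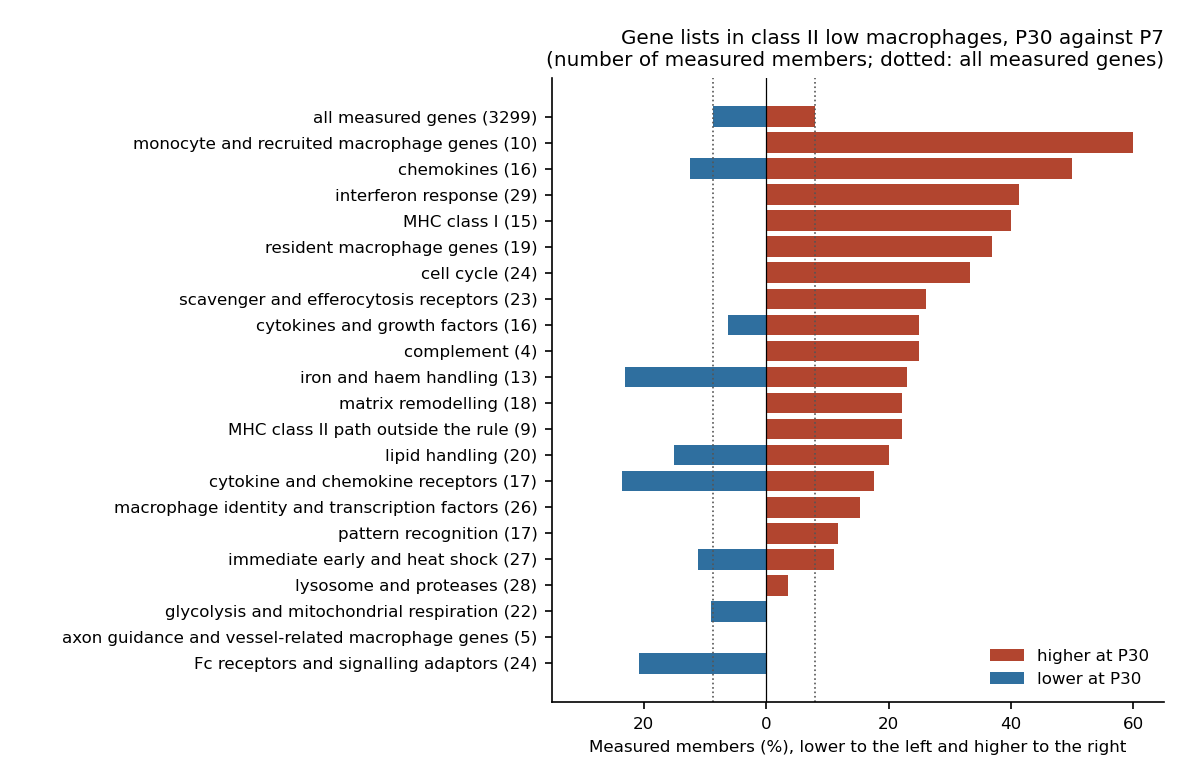
Percent of the measured members of each gene list called higher at P30 (bars to the right) or lower at P30 (bars to the left) in class II low macrophages, with the number measured beside each name and dotted lines at the shares over all measured genes. The interferon response list has 12 of 29 higher and 0 lower, and the Fc receptor and adaptor list 0 of 24 higher and 5 lower.

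Among 36 listed cytokines and growth factors 16 were measured, 4 of which were called higher and 1 lower. Tnf, the inflammatory cytokine, had 379 CPM at P30 (306 to 465) in 48 members and 161 CPM at P7 (91.9 to 261) in 8, a difference of 1.24. Hbegf, a ligand of the EGF receptor, had 25 UMIs at P30 and 1 UMI at P7, and Tnfsf9, the ligand of the costimulatory receptor 4-1BB, had 26 UMIs at P30 and none at P7. Of the 22 Areg UMIs at P30 21 were in 1 barcode. Tgfb1, the growth factor that drives matrix production, had 36.7 CPM at P30 and 121 CPM at P7, a difference of -1.72. Il1b had 567 CPM at P30 and 543 CPM at P7, and Igf1 stood at 0.00.

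Of 26 listed cytokine and chemokine receptors 17 were measured, with 3 higher and 4 lower at P30. The higher ones were Ccr1, a receptor of CC chemokines (1.46), Cxcr4, the receptor of Cxcl12 (1.55), and Ccr2, whose UMIs were all in 1 barcode. The lower ones were Ifnar2, a chain of the type I interferon receptor, with 110.1 CPM at P30 and 322 CPM at P7, a difference of -1.55 (-2.34 to -0.76), and Ifngr1, a chain of the interferon gamma receptor, with 167 CPM at P30 and 352 CPM at P7 (-1.07). Csf2rb, the shared chain of the receptors for GM-CSF, interleukin 3 and interleukin 5, had 32.6 CPM at P30 and 131 CPM at P7 (-2.0), and Tnfrsf11a, the receptor RANK, had 40.8 CPM at P30 and 131 CPM at P7 (-1.68). With median-of-ratios scaling Ifngr1 stood at -0.83 and was not called.

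Of 25 listed monocyte and recruited macrophage genes 10 were measured, 6 of which were higher and 0 lower. In collagen barcodes 5 of 9 measured genes of this list were also higher at P30 and 0 lower, with a median of 1.21. Over all measured genes 7.97% were called higher in members and 4.61% in collagen barcodes. Lyz2, the lysozyme of myeloid cells, had 6811 CPM at P30 (6488 to 7145) in 86 members and 2181 CPM at P7 (1901 to 2492) in 35, a difference of 1.64 (1.44 to 1.85). After thinning it was found in 79.5% of P30 members and 57.2% of P7 members. S100a4, a calcium-binding protein of migrating cells, had 35 UMIs in 17 P30 members and none at P7, at least 2.24 higher. S100a6 had 159 CPM at P30 and 40.2 CPM at P7, and the lectin receptor Clec4d had 147 CPM at P30 and 40.2 CPM at P7. Plac8, Fcnb and Chi3l3, which mark monocytes, were at 0, and the other 2 called members were Ifitm3 and Ccr2.

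Scavenger and efferocytosis genes, which take up modified lipoproteins and dying cells, had 23 of 32 measured, 6 higher and 0 lower. Anxa1, annexin A1, which promotes the uptake of dying cells, had 326 CPM at P30 (259 to 406) in 36 members and 10.1 CPM at P7, a difference of 5.02 (2.50 to 10.34). The collagen barcodes had 686 CPM of Anxa1 at P30 and 265 CPM at P7, and the interstitial markers were also higher in P30 members, at 408 CPM against 121 CPM at P7. Their part in the levels of Anxa1, Ifitm3 and S100a6 was not tested. Msr1, a scavenger receptor for modified lipoproteins, had 241 CPM at P30 and 101 CPM at P7, a difference of 1.26. Clec12a, an inhibitory lectin that senses uric acid crystals and is filed with these receptors, had 249 CPM at P30 and 80.4 CPM at P7. Colec12 and Cd163 were higher by 1.87 and 1.96, and Pros1, a bridge to dying cells, had 15 UMIs at P30 and none at P7. Mertk, the receptor for that bridge, stood at 0.36 and was not called.

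Of 30 listed genes of macrophage identity and transcription factors 26 were measured, with 4 higher and 0 lower. Emr1, which encodes the F4/80 antigen, had 277 CPM at P30 and 251 CPM at P7, a difference of 0.14. The fractalkine receptor gene Cx3cr1 stood at -0.52, the lysosomal marker Cd68 at -0.15, and the transcription factor Maf at 0.19. The 4 higher genes were Klf4, a transcription factor of monocytes and macrophages, with 506 CPM at P30 (421 to 603) and 141 CPM at P7 (76.9 to 236), Cd14, the coreceptor for bacterial lipopolysaccharide, with 1060.3 CPM at P30 and 462 CPM at P7, and the transcription factors Cebpb (1.32) and Tcf4 (1.21). Among 16 listed complement genes 4 were measured, and properdin, Cfp, which stabilises the alternative pathway convertase, was higher by 1.3 (0.48 to 2.23). Of 31 listed pattern recognition genes 17 were measured, and Cd14 and the RNA sensor Ifih1, at 1.92 (0.23 to 4.28), were called higher.

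Iron and haem handling went both ways. Of 18 listed genes 13 were measured, with 3 higher and 3 lower at P30. Slc40a1 (chr1:45908068-45926523, minus strand), ferroportin, the exporter of cellular iron, had 12.2 CPM at P30 and 211 CPM at P7, a difference of -4.11 (-6.50 to -2.37). Hmox1 (chr8:75093621-75100589, plus strand), haem oxygenase, which opens the haem ring, had 40.8 CPM at P30 and 231 CPM at P7, a difference of -2.50. A single P7 member held 17 of the 23 Hmox1 UMIs and 12 of the 21 Slc40a1 UMIs, and without the highest barcode of each gene neither was called, with Hmox1 at -0.93. Ftl1, the ferritin light chain, had 1953 CPM at P30 (1782 to 2137) and 4543 CPM at P7 (4134 to 4982), a difference of -1.22, or -0.98 and not called with median-of-ratios scaling. Fth1, the heavy chain, had 6329 CPM at P30 and 5207 CPM at P7, a difference of 0.28. Haemoglobin UMIs took 0.778% in P30 members and 1.37% in P7 members, and their part in these values was not tested. Cp, the ferroxidase ceruloplasmin, stood higher at P30, with 204 CPM against 60.3 CPM at P7.

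Gclm (chr3:122245557-122270732, plus strand), the modifier subunit of the enzyme that starts glutathione synthesis, had 237 CPM at P30 (179.6 to 306) in 34 of 92 members and 1005 CPM at P7 (818 to 1223) in 35 of 41, a difference of -2.09 (-2.58 to -1.61). After thinning it was found in 9.30% of P30 members and 38.4% of P7 members. The collagen barcodes had 149 CPM of Gclm at P30 and 497 CPM at P7. Tifab (chr13:56173704-56178885, minus strand), an adaptor that restrains innate immune signalling, had 1 UMI at P30 and 16 UMIs in 12 P7 members, a difference of -5.30. Hspd1, a mitochondrial chaperonin, had 131 CPM at P30 and 533 CPM at P7, a difference of -2.03. The splicing factor Srsf4 stood at -3.42 and Grcc10 at -4.00. Rasl2-9, which closely resembles Ran and may share reads with it, had 1 UMI at P30 and 11 at P7. The loci AC102758.1, AC123611.1, Mir692-1 and Mir692-2a, for which no role is given, stood at -3.69, -2.01, -2.82 and -1.92. In collagen barcodes these loci stood at -1.75, -1.55, -2.29 and -1.40, and Rasl2-9 and Grcc10 at -2.38 and -1.35, all called lower. Hspd1 and Srsf4 stood at -0.69 and -0.77 there and were not called, and Tifab was not measured there.

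Fc receptors and signalling adaptors, which couple immune receptors to kinases and phosphatases, had 24 of 28 measured, 0 higher and 5 lower, with a median of -0.31. P2ry12, an ADP receptor known from microglia, had 57.1 CPM at P30 and 201 CPM at P7, a difference of -1.82 (-2.91 to -0.76), and its relative P2ry13 had 16.3 CPM at P30 and 121 CPM at P7 (-2.89). Sirpa, the inhibitory receptor for the signal CD47, had 241 CPM at P30 and 523 CPM at P7 (-1.12), and the phosphatase Ptpn6 that acts below it had 171 CPM at P30 and 352 CPM at P7 (-1.04). Lcp2, an adaptor of immune receptors, stood at -1.23. With median-of-ratios scaling P2ry12 and P2ry13 were still called lower, while Lcp2, Sirpa and Ptpn6 stood at -0.99, -0.88 and -0.80.

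Lipid genes split. Of 31 listed 20 were measured, with 4 higher and 3 lower. Pltp, which transfers phospholipids between lipoproteins, had 237 CPM at P30 and 30.2 CPM at P7 (2.97). Alox5ap, the helper of leukotriene synthesis, had 604 CPM at P30 and 231 CPM at P7 (1.38). The acid phosphatase gene Acp5 and the cholesterol hydroxylase gene Ch25h were higher by 2.45 and 1.23. Lpl, lipoprotein lipase, had 199.8 CPM at P30 and 432 CPM at P7 (-1.11), and the lipid droplet coat gene Plin2 and the cyclooxygenase gene Ptgs1 stood at -1.05 and -1.52. With median-of-ratios scaling Lpl and Plin2 stood at -0.87 and -0.81 and were not called.

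Lysosomal genes, which degrade what macrophages take up, were mostly not called. Of 34 listed genes 28 were measured, and 1 was called higher, Cst3, the secreted inhibitor of cathepsins, with 4531 CPM at P30 and 2121 CPM at P7, a difference of 1.10. The list's median was -0.11, and it took a median of 2.06% of a barcode's UMIs at P30 and 1.97% at P7. Among 33 listed matrix remodelling genes 18 were measured, 4 of which were higher and 0 lower. They included F13a1, Fgl2, a fibrinogen-like protein (2.44), and Timp3, an inhibitor of metalloproteinases, with 163 CPM at P30 and 20.1 CPM at P7. The collagen barcodes held 4699.8 CPM of Timp3 at P30 and 2265 CPM at P7. Of 20 listed imprinted growth genes 1 was measured and of 22 axon guidance and vessel-related genes 5, and none was called. Of 22 measured glycolysis and respiration genes, of 32 listed, none was higher and 2 were lower, Gapdh (-1.23) and Ldha (-1.13), neither of which was called with median-of-ratios scaling.

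Immediate early and heat shock genes, which respond within minutes to stress and to tissue dissociation, had 27 of 32 measured, 3 higher and 3 lower, with a median of -0.35. Jun, a subunit of the AP-1 transcription factor, had 730.0 CPM at P30 (627 to 845) and 2282 CPM at P7 (1995 to 2599), a difference of -1.64. After thinning Jun was found in 27.3% of P30 members and 51.7% of P7 members, against an unthinned 55.4% and 70.7%. Fos stood at -0.79 and was not called, and Jund, another AP-1 subunit, was higher at P30, with 750.4 CPM against 251 CPM at P7.

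Cell cycle genes as a list had UMIs in most members, while UMIs of 10 mitotic genes lay mostly in few. At least 2 UMIs of the list were held by 77 of 92 P30 members and 34 of 41 P7 members. Of 37 listed 24 were measured, with 8 higher and 0 lower at P30, or 16 higher with median-of-ratios scaling. Cenpe (chr3:135212537-135273611, plus strand), a motor of the kinetochore, had 334 CPM at P30 in 17 members and 20.1 CPM at P7 in 2, a difference of 4.06 (2.16 to 7.13). Cenpf, another kinetochore protein, had 167 CPM at P30 and 10.1 CPM at P7 (4.06). Mki67, the Ki-67 antigen, had 461 CPM at P30 and 121 CPM at P7 (1.93), and Top2a, a topoisomerase of dividing cells, 493 CPM at P30 and 131 CPM at P7 (1.92). At P30 12 barcodes with at least 10 UMIs of 10 mitotic genes held 345 of the 391 such UMIs, and at P7 2 barcodes held 27 of 50. Members with at least 2 of these UMIs were 20 of 92 at P30, which is 21.7% (13.8 to 31.6), and 8 of 41 at P7, which is 19.5% (8.82 to 34.9), with intervals that overlap. Without the dividing barcodes, those with at least 2 of these UMIs, 1 of the listed genes was called, and Cenpe stood at 0.28. Since cell cycle UMIs picked these barcodes, a smaller difference without them was set in advance.

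The remaining named genes are of mixed function. Wfdc17 (chr11:83703991-83706268, plus strand), a secreted protein of activated macrophages, had 587 CPM at P30 (495 to 691) in 45 members and 70.4 CPM at P7 (28.3 to 145) in 5, a difference of 3.06 (1.98 to 4.4). Edn1 (chr13:42301476-42307990), endothelin-1, had 28 UMIs in 7 P30 members and none at P7, at least 1.92 higher, while endothelial markers were at 110.1 CPM at P30 and 60.3 CPM at P7. Retnla (chr16:48842551-48844461), a marker of macrophages exposed to interleukin 4, had 48 UMIs at P30 and none at P7, but 44 of them were in 1 barcode.

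At P30, class II low macrophages could be set beside the 134 class II positive macrophages of the same library, which had 2 or more class II UMIs and a median of 2218 UMIs. The P7 library held only 6 class II positive barcodes, too few to compare. The rule split these same cells, so the differences are a description with no test. Of 4568 measured genes 217 stood higher in class II low barcodes (4.75%) and 125 lower (2.74%), with a median of -0.00. With median-of-ratios scaling 166 stood higher and 164 lower, so that 50.3% of the differences were upward, against 63.5%.

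Resident macrophage genes stood higher in the class II low barcodes. Of 27 listed 20 were measured, 16 of which stood higher and 0 lower, with a median of 1.57. Lyve1 had 302 CPM in class II low barcodes (237 to 379) and 20.7 CPM in class II positive barcodes (8.32 to 42.6), a difference of 3.87 (2.75 to 5.23), with UMIs in 24 of 92 class II low and 2 of 134 class II positive barcodes. F13a1 had 1060.3 CPM in class II low barcodes and 166 CPM (125 to 215) in class II positive ones (2.68). Cbr2 had 640.3 CPM in class II low barcodes and 127 CPM in class II positive ones (2.33). Folr2 had 237 CPM in class II low barcodes and 38.4 CPM in class II positive ones (2.62). Timd4 and Fcna, a ficolin that recognises microbial sugars, had 13 UMIs each in class II low barcodes and 2 and 1 in class II positive ones. Pf4 had 3422 CPM in class II low barcodes (3194 to 3661) and 1469.5 CPM in class II positive ones (1343 to 1605), a difference of 1.22 (1.06 to 1.38), although it differed little between the ages. Mrc1 stood higher by 1.08 (0.84 to 1.32), Mertk by 1.65 and Stab1 by 1.40. The growth factor Igf1 stood higher by 1.18, and the anti-inflammatory cytokine Il10 had 16 UMIs in class II low barcodes and 3 in class II positive ones. Cd163 stood higher by 2.19. Llgl1, a gene of cell polarity, had 10 UMIs in class II low barcodes and none in class II positive ones, and the 22 Areg UMIs of class II low barcodes were in 2 barcodes.

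Fewer genes stood lower. Cd74, outside the rule but on the same path, had 302 CPM in class II low barcodes (237 to 379) and 7422 CPM in class II positive ones (7134 to 7718), a difference of -4.62. The loading catalyst genes H2-DMa and H2-DMb1 stood at -1.88 and -2.14. Il1b, the inflammatory cytokine interleukin 1 beta, had 567 CPM in class II low barcodes (477 to 669) and 2197 CPM in class II positive ones (2042 to 2361), a difference of -1.95, with UMIs in 24 of 92 class II low and 96 of 134 class II positive barcodes. Ccr2 had UMIs in 1 of 92 class II low barcodes and 30 of 134 class II positive ones. The collagenase gene Mmp13 had 188 CPM in class II low barcodes and 839.7 CPM in class II positive ones (-2.16), and Cytip and Plbd1, genes of leukocyte adhesion and phospholipid breakdown, stood at -2.89 and -2.74. The 33 Ccl17 UMIs of class II positive barcodes were in 2 barcodes, and class II low barcodes had none. H2-M2, a nonclassical class I gene, and Atad2b, a bromodomain protein, had no UMI in class II low barcodes and 22 and 15 in class II positive ones. Without the barcode with most UMIs of each gene, Llgl1 and H2-M2 were no longer called and Areg was no longer measured. Of 33 measured interferon response genes 1 stood higher and 3 lower, and of 25 measured scavenger genes 8 stood higher and 0 lower. Ifi27l2a and Cxcl1, called between the ages, stood at 0.41 and 0.09 here and were not called.

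Within the P30 class II low barcodes, 37 held at least 2 UMIs of Lyve1, Folr2, Timd4 and Cd163, 44 held none and 11 held 1. The first 2 sets had medians of 2545 and 2499.5 UMIs per barcode, and at P7 only 6 members held 2 or more, too few to compare. Since the split uses these 4 genes in the same cells, the other genes are described with no test. Of 2404 measured genes 154 stood higher in the resident set (6.41%) and 135 lower (5.62%). F13a1 had 2219.5 CPM in the resident set and 172 CPM in the set with none, a difference of 3.69 (3.05 to 4.41), with UMIs in 33 of the 37 resident barcodes and 6 of the 44 with none. Cbr2 had 1194 CPM in the resident set and 196 CPM in the set with none (2.61). Mrc1 had 2468 CPM in the resident set and 727 CPM in the set with none (1.76), and Pf4 had 4887 CPM in the resident set and 2158 CPM in the set with none (1.18). The chemokines Ccl8 and Ccl6, which had no UMI at P7, had 468 and 438 CPM in the resident set and 24.5 and 65.4 CPM in the set with none. Cp, Klf4, Pltp and Gas6 stood higher by 3.68, 2.03, 2.35 and 1.85.

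Of 14 measured chemokines 4 stood higher in the resident set and 5 lower, with a median of -0.14, and of 13 measured cytokines and growth factors 2 stood higher and 6 lower. Ccl4 had 667 CPM in the resident set and 3171 CPM in the set with none, a difference of -2.25 (-2.65 to -1.87), with UMIs in 15 of the 37 resident barcodes and 36 of the 44 with none. Il1b had 229 CPM in the resident set and 923 CPM in the set with none (-2.01), and Tnf had 229 CPM in the resident set and 474 CPM in the set with none (-1.05). Ccl3, an inflammatory chemokine related to Ccl4, stood at -1.57. Cxcl2 had 4429 CPM in the resident set and 9014 CPM in the set with none (-1.03). Rsad2 had no UMI in the resident set and 14 in the set with none. The barcode with 25 of the 40 Rsad2 UMIs at P30 was in neither set, being 1 of the 11 with a single UMI of the splitting genes. Cxcl10 stood at -2.52, while Ifi27l2a stood at 0.44. Isg15 stood at -2.04. Of its 31 UMIs at P30, 4 were in the resident set and 20 in the set with none, 14 of them in 1 barcode. C1qa, C1qc and Csf1r of the macrophage rule stood at 0.24, 0.29 and 0.39, and Cx3cr1 and Emr1 at 0.09 and 0.37, none of which was called. Lyve1 was found in 24 of the 92 members and Ccr2 in 1, which held no Lyve1 UMI. A single barcode cannot show whether these genes are kept apart.

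**Figure D5:**
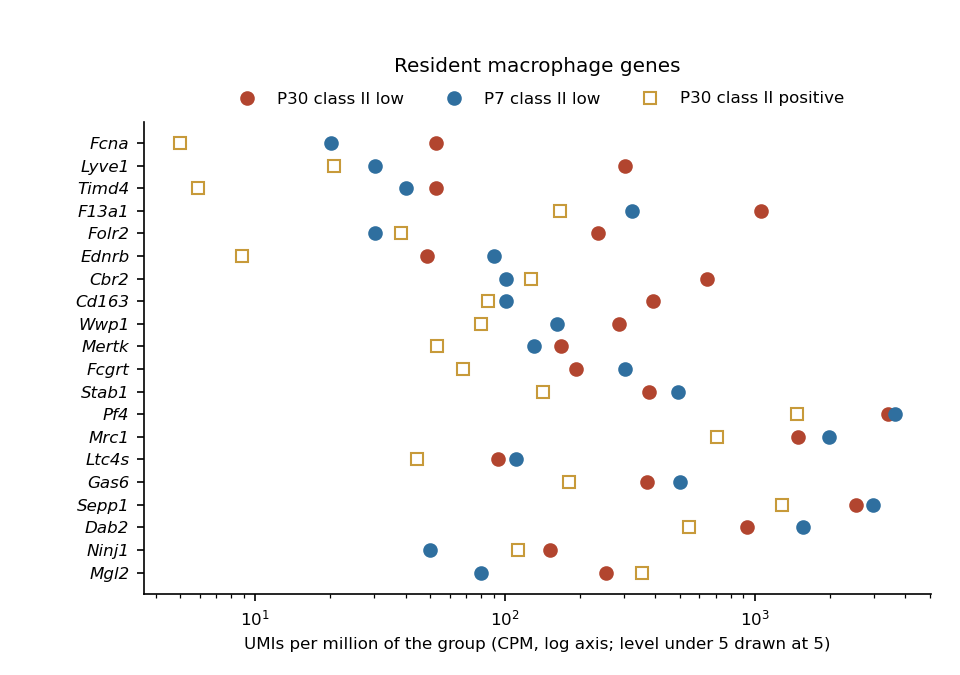
Level of each measured resident macrophage gene (x axis, CPM on a log scale, summed over the barcodes of a group) in P30 class II low, P7 class II low and P30 class II positive macrophages, with genes ordered by the ratio of class II low over class II positive at P30 and levels under 5 CPM drawn at 5. Lyve1 stands at 302 CPM in P30 class II low, 30.2 CPM in P7 class II low and 20.7 CPM in P30 class II positive macrophages.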

How the data were processed

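Drop-seq UMI counts of P30 and P7 valve cells were used as the authors deposited them, whole numbers per gene and barcode with no normalization. The submitters' processing notes name Bowtie2 2.2.7 and mm10 without saying how either was used. The counter and gene annotation: not given in the sources used here. No barcode had under 500 detected genes, the deposited normalized tables were not used, and no doublet caller was run. Collagen barcodes are those with at least 1% of UMIs from the 4 matrix genes of the rule.

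Members' counts were summed per library and scaled to UMIs per 1000000. Intervals at 95% are exact Poisson for levels, exact binomial for ratios and Clopper-Pearson for shares. With 1 library per age there was no test. Named genes are the 12 per direction (8 for class II low against positive) whose interval lay farthest from equality. Mitochondrial, ribosomal protein, haemoglobin, unnamed and rule genes were left out, as were genes lower in members than in all other barcodes of the higher library. Members and the 22 gene lists were chosen with earlier results of these data known. The interval code was tested on simulated data. Positions are from the GENCODE annotation of mm10 and promoters from RefSeq. Python 3.11.15, numpy 2.4.6, pandas 2.3.3, scipy 1.17.1 and matplotlib 3.10.9 were used. A few listed genes are not reported here.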

Additional observations from a re-analysis of the deposited data

Results flagged for a closer look

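For 7 listed genes the class II low macrophages and the collagen barcodes of the same libraries differed between P30 and P7 in opposite directions, each past the 2-fold call, and the difference between these cell groups was not tested. On the log2 scale of P30 over P7, the cell cycle genes Cenpa, Mki67, Stmn1 and Tpx2 stood at 3.22, 1.93, 1.10 and 1.76 in class II low macrophages and at -1.25, -1.93, -1.46 and -1.42 in collagen barcodes. In P7 class II low macrophages Cenpa had 1 UMI and Tpx2 had 3. At P30 12 class II low barcodes held 345 of the 391 UMIs of 10 mitotic genes. Barcodes with at least 2 such UMIs were 21.7% of class II low macrophages at P30 and 19.5% at P7. Among collagen barcodes they were 2.32% at P30 and 9.42% at P7. Cxcl10, the interferon-induced chemokine, stood at -1.3 in class II low macrophages and 2.2 in collagen barcodes. Lpl, lipoprotein lipase, stood at -1.11 in class II low macrophages and 2.40 in collagen barcodes, and Csf2rb, a cytokine receptor chain, at -2.0 in class II low macrophages and 6.21 in collagen barcodes. The Csf2rb level in P7 collagen barcodes was 0.458 CPM, the worth of 1 UMI.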

How the results depend on the processing

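Each age has 1 library, so no library could be left out. No paired analysis was possible because each age holds only replicate 1. Median-of-ratios scaling gave 424 genes higher and 175 lower at P30, no low-value filter gave 519 lower, and thinning to 500 UMIs, which left 688 genes measured, gave 41 higher and 40 lower. Without each gene's highest barcode 296 were higher and 199 lower, so that under this and the median-of-ratios setting higher calls outnumbered lower ones, which they did not in the reported counts. They also did so narrowly after thinning, and without barcodes ending in N or 1 base apart, with 202 higher and 201 lower. With 0 class II UMIs required, class II low barcodes were 32.7% (26.7 to 39.3) of P30 macrophages. Of the 24 named genes 8 kept their call after thinning, 4 had too few UMIs for a value and 12 lost it, Ccl8, Ccl6, Retnla, Lyve1, Isg15, Edn1, Cenpf, AC102758.1, Mir692-1, Srsf4, Hmox1 and Hspd1. Without each gene's highest barcode, H2-DMb1, Irf7, Irgm1, Cxcl9, Lpl, Plin2, Ptgs1, Ptpn6, P2ry13, Pros1, Ldha and Tgfb1 also lost their calls. Without barcodes ending in N or 1 base apart, Edn1, Rasl2-9, Grcc10 and Srsf4 were not called. Ifi27l2a ranged from 3.19 to 3.82 over the alternatives, Lyve1 from 2.46 to 3.65 and Gclm from -2.81 to -1.85. A level under 12.2 CPM at P30 or 30.2 CPM at P7 rests on under 3 UMIs.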

Other observations

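Some gene differences at P30 lay in single members, which were looked for after their values were seen. A P30 member of 6292 UMIs, with 91 UMIs of the macrophage genes of the rule, held 241 of the 2032 UMIs of the interferon response list. They included 86 of 560 Ifi27l2a, 14 of 31 Isg15, 10 of 22 Irf7, 6 of 13 Ifit3 and all 18 Ly6a UMIs. A second P30 member, of 3785 UMIs, held 25 of 40 Rsad2, 10 of 22 Irf7 and 6 of 25 Gbp2 UMIs. The P30 member with 44 of the 48 Retnla UMIs also held 4 Lyve1 and 17 Mrc1 UMIs.

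At P7 the member with 17 of 23 Hmox1 and 12 of 21 Slc40a1 UMIs had 5126 UMIs in all and 14 of the macrophage genes of the rule. It also held 9 of the 17 UMIs of the heat shock gene Hspa1a.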
